A study of Mus musculus with 54 samples.

Results

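Brain RNA of vehicle-treated mice at 20 months was compared with that of vehicle-treated mice at 6 to 7 months, over 11 of the 54 libraries of the series. The members were picked out by their titles, with earlier results of these data known. They are 6 libraries of wild-type mice aged 20 months (libraries 27 to 32) and 5 of control littermates of the APPSWE-1349 line (libraries s149, s150, s151, s154 and s155). APPSWE-1349 mice carry a human amyloid precursor transgene as a model of Alzheimer's disease, and the littermates do not carry it. The series as a whole tested Cmpd60, an inhibitor of histone deacetylases 1 and 2, in aged mice and in this disease model. All 11 mice were males on a BL6 background that received the carrier solution without Cmpd60 by intraperitoneal injection once a day for 14 days. The records conflict on age, since the growth notes attached to all 54 libraries, littermates included, describe mice of about 20 months, and 6 to 7 months for the littermate cohort comes from the design text of the series and the methods of the study. The 20-month mice and the littermates were of separate cohorts and colonies. The study's methods give an overnight fast before tissue collection for the APPSWE-1349 cohort and do not state one for the aged cohort. Age, cohort, colony, feeding before collection and library complexity therefore cannot be told apart in any difference below, and "20-month" and "littermate" name the groups, not a cause.

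In the ageing brain, astrocytes and microglia are known to turn towards a reactive state. Gfap, a filament protein of astrocytes, the complement protein C4b and the protease inhibitor Serpina3n are the usual markers of that state in mice. Complement proteins tag synapses and debris for microglia, interferon signalling raises antiviral and antigen-presenting genes, and oligodendrocytes keep up the myelin around axons. Poly(A) RNA of brain tissue was read, so fewer cells of a type and less RNA per cell cannot be told apart.

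The libraries held from 25119590 to 37844133 counts on genes, and depth overlapped between the groups, but complexity did not. At least 1 count was seen for 24939 to 25861 genes in the 20-month libraries (25516 ± 337, SD, n = 6). The littermate libraries had 23151, 19669, 22393, 18804 and 15044 genes (19812 ± 3224, SD, n = 5), and every one lay below every 20-month library (two-sided exact permutation test, p = 0.00433, the smallest that 462 arrangements allow). Thinned to the depth of the smallest library, the means were 25235 and 19733 genes. Reads aligned to several places made up 4.02 ± 0.162% of the 20-month and 3.33 ± 0.162% of the littermate reads, also with no overlap. Littermate library s155 stood apart from its own group, with a median correlation of 0.903 against at least 0.970 for the other littermates and at least 0.990 within the 20-month group. The SD of a gene over libraries was larger in the littermates for 88.1% of genes. Neuronal (Snap25, Syt1), astrocyte (Slc1a2), oligodendrocyte (Mbp) and microglial (Csf1r) markers were present in all 11 libraries, with Snap25 at 2384 CPM or more and Csf1r at 61.9 CPM or more. Alb, a liver marker, was at most 0.0708 CPM and Umod, a kidney marker, at most 0.890 CPM.

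**Figure D1:**
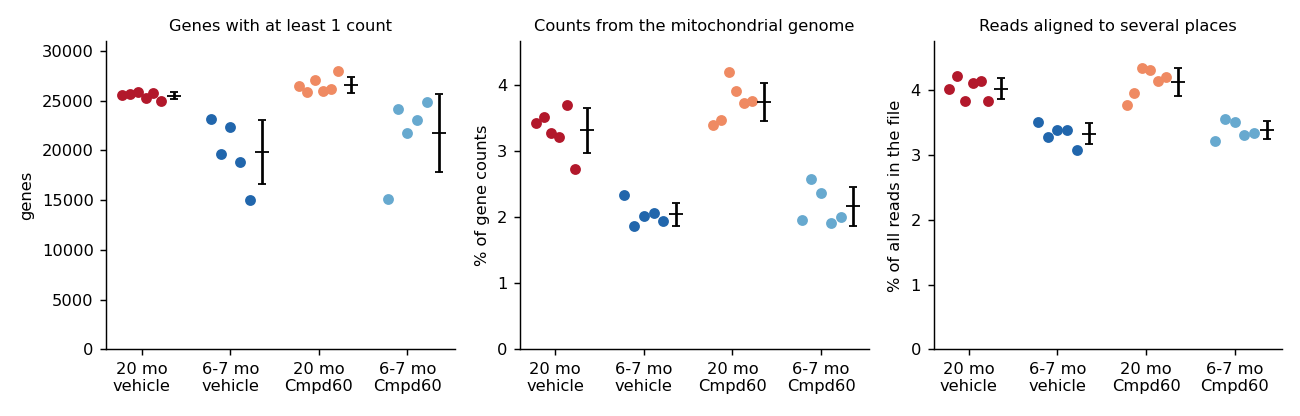
Each point is 1 brain library, in vehicle and in Cmpd60 groups at 20 months and at 6 to 7 months: genes with at least 1 count (left), percent of gene counts from the mitochondrial genome (middle) and percent of reads aligned to several places (right). Black bars are the mean and SD, and in each panel both 20-month groups lie above both littermate groups, with littermate library s155 at 15044 genes the lowest.

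Of 10776 genes with a mean of at least 10 CPM (counts relative to the TMM-scaled size of the library) in either group, 1247 differed at an adjusted p below 0.05, which is 11.6% of those tested. All adjusted p-values are of edgeR's quasi-likelihood test with Benjamini-Hochberg adjustment over all genes tested, log2 fold changes are 20-month over littermate with their standard error (SE), and "rose" and "fell" name the 20-month direction. Of the 1247 genes, 579 were higher (5.37% of those tested) and 668 lower (6.2%) in the 20-month libraries. Counts of called list members, given below, are to be read beside these shares. The changes were mostly small, as 1150 of the 1247 were under 2-fold (1 on the log2 scale), and the median log2 fold change of all genes was -0.01. In 1149 genes, 10.7% of those tested, the values of the groups did not overlap, with 5.27% higher and 5.39% lower. Of the tested genes, 371 reached 10 CPM in the 20-month group only and 228 in the littermates only, and a gene that passed through 1 group alone is marked as such where its change is given. With a covariate for how many genes each library detected, 244 genes were called, 59.0% of them higher, and 125 of these were among the 1247. Genes detected did not overlap between the groups, so this covariate partly stands for the group itself. Without library s155 the count was 2265, with 1196 higher. Without library 27, 28 or 31 it was 712, 771 or 730. The filter of the study, which keeps more genes of low count, gave 875 higher and 677 lower. A set of 444 genes (193 higher, 251 lower) was called under each of 16 settings of test, scaling, depth and libraries, which included neither another filter nor that covariate.

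**Figure D2:**
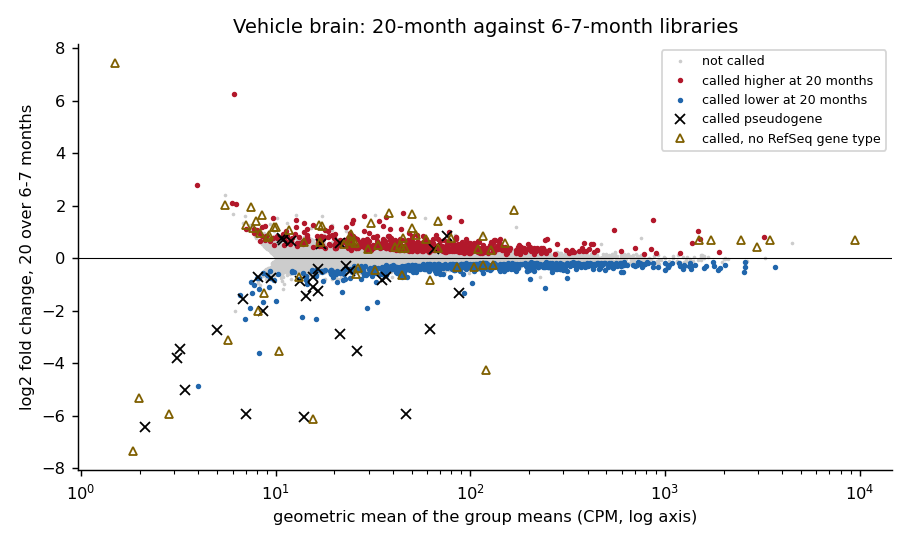
Each point is 1 of 10776 genes, with the geometric mean of its group means in CPM on a log axis and the log2 fold change, 20-month over littermate; grey points were not called. Crosses mark called genes with a pseudogene type and triangles those without a RefSeq type. Most calls lie within 1 log2 unit of 0. Counted by type or by name, 11 called pseudogenes lie at or below -2 and none at or above 2.

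The usual markers of glial ageing did not rise together. C4b (ENSMUSG00000073418) ranged from 87.1 to 112 CPM (median 95.4) in the 20-month libraries and was at 122.8, 85.3, 161, 27.3 and 163 CPM in littermates s149, s150, s151, s154 and s155, the order used throughout. The littermate values lay on both sides of the 20-month range, and the log2 fold change was -0.21 ± 0.31 (adjusted p = 0.701). It was -0.55 (adjusted p = 0.0057) without the 3 littermate libraries under 20000 genes. Serpina3n was at 22.2 to 31.5 CPM (median 27.3) against 29.8, 21.3, 22, 22.8 and 18.8 CPM, with a log2 fold change of 0.26 ± 0.13 (adjusted p = 0.213). Gfap was the only one of these 3 to pass the test. It measured 334 to 389.9 CPM (median 369) against 301, 289, 319, 319 and 349.8 CPM, overlapping in 1 littermate, and rose by 0.22 ± 0.06 (adjusted p = 0.0297). The Gfap call was lost without library 27, 30, 32, s149 or s150, with an adjusted p of up to 0.075. C4b and Serpina3n thus did not set the groups apart as aged and younger brain, and the groups are called by their labels alone.

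Among 25 genes of reactive astrocytes 9 could be tested, and 2 rose (Gfap and Amigo2, a cell adhesion protein) and 0 fell, with a median log2 fold change of 0.26. Genes that mark astrocytes in general went both ways, with 2 of 18 higher and 2 lower, against 5.37% and 6.2% over all genes. Glul, the glutamine synthetase of astrocytes, was at 1563 to 1871 CPM (median 1682) against 1352, 1249, 1150.5, 1083 and 822 CPM, and rose by 0.58 ± 0.10 (adjusted p = 0.00323). Aqp4, the water channel of astrocyte endfeet, was at 149.5 to 173 CPM (median 166) against 125, 121, 138, 122 and 137 CPM, and rose by 0.35 ± 0.06 (adjusted p = 0.00285). Gja1, the gap junction protein connexin 43, went the other way, at 166 to 183 CPM (median 172) against 259, 244, 231, 207 and 185 CPM, and fell by 0.38 ± 0.08 (adjusted p = 0.00842). None of these 3 overlapped between the groups. Slc1a3, a glutamate transporter, was the other one that fell, and its call was lost without library 27, 28, 29, 30, s149 or s154.

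The start of the classical complement cascade was higher in the 20-month libraries. C1qa, C1qb and C1qc encode the chains of C1q, which microglia make. C1qb was at 45.9 to 59.6 CPM (median 49.5) against 38.0, 25.1, 29, 37.9 and 21.2 CPM, and rose by 0.75 ± 0.14 (adjusted p = 0.00644). C1qa was at 41.1 to 53.1 CPM (median 43.7) against 34.2, 34.7, 33.4, 30.3 and 27.2 CPM, and rose by 0.49 ± 0.09 (adjusted p = 0.00602). C1qc was at 29.9 to 39.9 CPM (median 32.9) against 21.8, 21.9, 15.5, 13.2 and 26.3 CPM, and rose by 0.75 ± 0.16 (adjusted p = 0.0104). All 3 chains were higher in each 20-month library than in each littermate. The other called complement genes fell. Cd59a, which blocks the final pore of the cascade, was at 8.66 to 12.8 CPM (median 10.9) against 12.8, 14.5, 22.1, 28.3 and 18.8 CPM and fell by 0.85 ± 0.20 (adjusted p = 0.0157). C3, the central component, reached the filter in the littermates only, at 3.39 to 5.5 CPM (median 4.87) against 9.57, 13.3, 22, 1.92 and 13.4 CPM, and had an adjusted p of 0.0484, which exceeded 0.05 when any single 20-month library, or littermate s149 or s150, was left out. In all 3 of 8 tested complement genes rose and 2 fell, against 5.37% higher and 6.2% lower over all genes. With the covariate for genes detected, 0 of these 8 were called, with a median of -0.10. C3, Trem2, the other neurofilament chains, H2-T22, H2-T23, Tph2 and the named pseudogenes were chosen after their values were seen.

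Microglial genes divided. Of 16 homeostatic microglia genes 10 were tested, 2 rose and 0 fell, with a median of 0.02. Fcrls, a microglial surface receptor that reached the filter at 20 months only, was at 13.8 to 16.8 CPM (median 14.6) against 9.0, 5.45, 7.28, 10.4 and 7.82 CPM, and rose by 0.90 ± 0.17 (adjusted p = 0.00546). P2ry12, the purine receptor that marks resting microglia, was at 17.4 to 21.7 CPM (median 21.0) against 22.7, 22, 24.6, 30.7 and 31.1 CPM, without overlap and with a log2 fold change of -0.35 ± 0.12 that did not pass (adjusted p = 0.0704). The markers of the whole list thus did not move one way.

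Of 28 disease-associated microglia genes 16 were tested, and 4 rose and 1 fell, against 5.37% and 6.2% over all genes. Lyz2, a lysozyme of phagocytes, passed the filter at 20 months only and was at 16.1 to 23.2 CPM (median 19.4) against 13.2, 8.22, 13.1, 8.90 and 5.86 CPM. It rose by 1.0 ± 0.21 (adjusted p = 0.00869). Ctsd, a lysosomal protease, was at 104 to 151.2 CPM (median 127) against 73.4, 103, 99.1, 82.5 and 70.4 CPM, and rose by 0.57 ± 0.12 (adjusted p = 0.00838). Lpl, a lipoprotein lipase counted among the same genes, fell by 0.81 ± 0.13 (adjusted p = 0.00227), at 15.5 to 18 CPM (median 17.7) against 38.2, 32.7, 29.1, 22.3 and 27 CPM. The Lpl call held in all 23 settings, counted here and below without those that drop mitochondrial or noncoding genes. Trem2, a lipid receptor of activated microglia that passed the filter at 20 months only, was at 9.41 to 13.9 CPM (median 11.5) against 6.49, 3.99, 5.40, 7.66 and 0.0416 CPM. Each 20-month library exceeded each littermate for Trem2, but with library s155 near 0 the adjusted p was 0.149. Without library s155, 7 of these disease-associated genes rose and 1 fell. With the covariate for genes detected, 1 rose and 1 fell, with a median of 0.05.

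**Figure D3:**
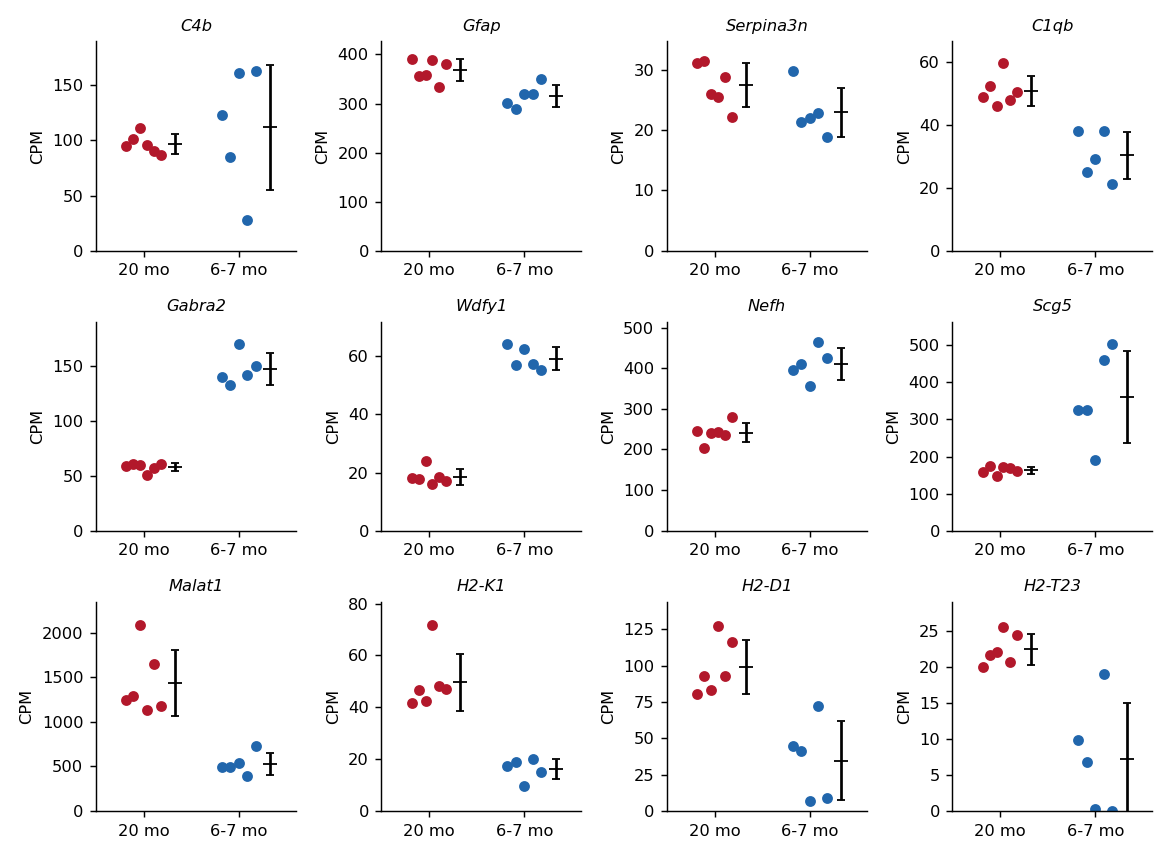
Each panel shows 1 gene in CPM, with 1 point per library of the 20-month (red) and littermate (blue) groups, and bars for the mean and SD, cut off at 0. C4b and Serpina3n overlap between the groups, Gabra2, Wdfy1, Nefh and H2-K1 do not, and H2-T23 is near 0 in littermates s151 and s155.

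Of 22 genes of antigen presentation on major histocompatibility complex (MHC) class I, 14 were tested, of which 3 rose, 0 fell and 11 did not pass, with a median of 0.27 and wide differences among the littermates. With the covariate for genes detected, 1 of the 14 was called. H2-K1 (ENSMUSG00000061232), a classical class I heavy chain, was at 41.6 to 71.7 CPM (median 46.9) against 17.3, 19.0, 9.77, 19.8 and 14.9 CPM, and rose by 1.62 ± 0.19 (adjusted p = 0.00028), a 3.07-fold difference that was called in all 23 settings. B2m, the light chain shared by class I molecules, was at 56.5 to 80.7 CPM (median 60.2) against 34.6, 36.0, 59.4, 29.2 and 40.9 CPM, overlapping in littermate s151, and rose by 0.65 ± 0.16 (adjusted p = 0.0198). H2-D1, the other classical heavy chain, was at 80.7 to 127 CPM (median 92.7) against 44.6, 40.9, 6.94, 71.9 and 8.69 CPM, without overlap and with an adjusted p of 0.051. Its lowest values were in littermates s151 and s155.

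The same 2 libraries were near 0 for the nonclassical genes of this locus. H2-T22 and H2-T23 passed the filter at 20 months only. H2-T22 was at 29.1 to 31.5 CPM (median 29.4) against 12.9, 16.1, 0.514, 19.9 and 0 CPM. H2-T23 was at 20.1 to 25.6 CPM (median 21.9) against 9.79, 6.74, 0.294, 19.0 and 0 CPM. Neither passed the test (adjusted p = 0.181 and 0.187). H2-Q4, which passed the filter at 20 months only, was at 7.46 to 17.2 CPM (median 9.58) against 2.66, 2.40, 0.0367, 2.41 and 0 CPM and rose by 2.78 ± 0.71 (adjusted p = 0.024). A count of 0 in library s155 allows up to 3 counts, or 0.119 CPM. Class I genes of mice are highly polymorphic and alike in sequence, so reads of 1 gene can be lost or split between copies, and whether this moves the values was not tested. Only 1 of 10 class II genes and 1 of 23 lymphocyte genes reached the filter, and neither passed the test.

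Of 35 interferon-stimulated genes 10 were tested, of which 2 rose and 0 fell, with a median of 0.22. Ifi27, an interferon-induced membrane protein, was at 29.9 to 40.3 CPM (median 35.7) against 21.3, 18.9, 30.4, 20.6 and 19.8 CPM, overlapping in littermate s151, and rose by 0.69 ± 0.13 (adjusted p = 0.0055). Ifit3, which binds viral RNA and its sensors and passed the filter at 20 months only, was at 11.7 to 16.5 CPM (median 14.5) against 5.66, 6.15, 17.3, 10.7 and 10.1 CPM (adjusted p = 0.203). Stat2, a transcription factor of the interferon response, was at 30.7 to 37.0 CPM against 30.7 to 38.8 CPM, with a log2 fold change of -0.05 ± 0.09.

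Factors of this pathway are known to bind an element of GAAA, any 2 bases and GAAA, which is shown here because it sets the list apart in the genome and not by its values. It was searched on both strands, overlaps included, in RefSeq promoters of build GRCm38.p6, from 250 bases before to 50 after the start site. A match was found in 943 of 27025 promoters (3.49%), in 209 of 8361 promoters of tested genes (2.5%) and in 17 of 28 promoters of the listed interferon genes (60.7%). Of the 8 tested members with a promoter 3 held it, and the windows below belong to Ifit3 and Stat2, neither of which passed the test. Capitals mark the element, which reads on the opposite strand here, with position counted from the start site.
Ifit3, chr19:34583399-34583424, plus strand, first element base at -122: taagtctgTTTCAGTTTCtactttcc
Ifit3, chr19:34583365-34583390, plus strand, further from the start: gtggtaagTTTCACTTTCctcttctg
Stat2, chr10:128270268-128270293, plus strand, first element base at -222: caccctggTTTCAGTTTCctttccct
These are descriptions of the reference sequence, and no binding was measured.

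Oligodendrocyte genes were higher where called with all 11 libraries, which did not hold for precursor genes in other sets of libraries. Over all genes tested, 5.37% were higher and 6.2% lower. Of 26 myelin genes 24 were tested, all 24 above the filter in both groups, and 6 rose and 0 fell. Apod, a lipid carrier of myelinating cells, was at 234 to 342 CPM (median 318) against 217, 172, 209, 195 and 162 CPM, and rose by 0.68 ± 0.10 (adjusted p = 0.00142). The structural protein of the sheath Mbp was at 3083 to 3773 CPM against 2848 to 3647 CPM, with a log2 fold change of 0.01 (adjusted p = 0.919). Of 17 tested genes of oligodendrocyte precursors 3 rose and 0 fell. Without library s155, 6 of them rose and 2 fell, and without the libraries under 20000 genes 3 rose and 2 fell. Among Cmpd60-treated brains 1 of 16 precursor genes rose and 2 fell. Olig2, a transcription factor of the whole lineage, was at 38.8 to 43.9 CPM (median 41.5) against 31.7, 32, 24.5, 24.9 and 18.2 CPM, and rose by 0.65 ± 0.13 (adjusted p = 0.00742). Its neighbour Olig1 was at 109.6 to 141 CPM (median 119) against 105, 63.6, 84.8, 91.6 and 65.1 CPM, and rose by 0.56 ± 0.12 (adjusted p = 0.0113). With the covariate for genes detected, 0 of the 24 tested myelin genes and 0 of the 17 precursor genes were called.

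Among receptors for the main inhibitory transmitter, Gabra2 (ENSMUSG00000000560), the alpha 2 subunit of the GABA-A receptor, differed most plainly. It was at 50.8 to 60.7 CPM (median 59.4) in the 20-month libraries and at 139.7, 133, 170.3, 141.8 and 150.2 CPM in the littermates. The lowest littermate was far above the highest 20-month library, and the gene fell by 1.34 ± 0.07 on the log2 scale, 2.54-fold (adjusted p = 1.2e-07). Gabra2 is known for a deletion in the C57BL/6J substrain that lowers its expression. The labels give both groups as BL6 only, and the study's methods name 2 different suppliers of the aged mice. Wdfy1, an endosomal adaptor also known to differ among C57BL/6 substrains, was at 16.2 to 23.9 CPM (median 17.9) against 64.2, 56.9, 62.4, 57.2 and 55.4 CPM, and fell by 1.67 ± 0.10, 3.18-fold (adjusted p = 3.5e-07). Cyfip2, an actin regulator with a known substrain variant, was at 854 to 967 CPM (median 931) against 1101, 1139.8, 1094, 1119 and 1348 CPM, and fell by 0.33 ± 0.06 (adjusted p = 0.00348). Nnt, a mitochondrial enzyme deleted in part in C57BL/6J, was below 1 CPM in all 11 libraries, at 0.156 to 0.708 CPM against 0 to 0.150 CPM. These genes were listed because they differ among colonies, and for them age and colony cannot be told apart. Of the 15 genes listed for this 8 were tested, of which 0 rose, 3 fell and 5 did not pass. Their log2 fold changes ran from -2.02 to 0.53, with 2 of the 8 above 0.

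Of 13 GABA-A subunits 1 rose and 2 fell, against 5.37% higher and 6.2% lower over all genes tested. Gabra6, a subunit of cerebellar granule cells, was at 63.1 to 90.0 CPM (median 71.1) against 102, 150.5, 119.8, 84.0 and 109.7 CPM, overlapping in littermate s154, and fell by 0.62 ± 0.14 (adjusted p = 0.0115). Of 24 glutamate receptor genes 3 rose and 0 fell. Grin2b, the NMDA receptor subunit that dominates in early life, was at 402 to 585 CPM (median 525) against 364, 364, 388, 295 and 358 CPM, and rose by 0.53 ± 0.09 (adjusted p = 0.00351). Grik2, a kainate receptor subunit, was at 76.8 to 96.6 CPM (median 83.4) against 59.7, 62.6, 68.5, 61.8 and 51.7 CPM, and rose by 0.48 ± 0.08 (adjusted p = 0.00338). Neither overlapped between the groups. Of 15 interneuron genes 0 were called in either direction.

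Of 25 tested neurofilament and kinesin genes, which form the axonal skeleton and its motors, 1 rose, 9 fell and 15 did not pass, with a median of -0.15 against -0.01 over all genes. This list was drawn up after values of these data were seen, and with the covariate for genes detected 1 member was called. Nefh (ENSMUSG00000020396), the heavy neurofilament chain of large axons, was at 205 to 280.0 CPM (median 242) against 395, 409.6, 357, 464 and 426 CPM, and fell by 0.77 ± 0.08 (adjusted p = 0.00011) in all 23 settings. Nefm, the middle chain, was at 429 to 705 CPM (median 485) against 725, 814, 632, 797 and 691 CPM, overlapping because 20-month library 32 was high, and fell by 0.52 ± 0.11 (adjusted p = 0.0104). Nefl, the light chain, was at 638 to 807 CPM (median 689) against 938, 886, 820.4, 886 and 723 CPM, and fell by 0.27 ± 0.07 (adjusted p = 0.0292). The Nefl call was lost without library 27, 28, 29, 30, 31, s149, s150 or s154 (adjusted p of up to 0.067). Kif5c, a kinesin that carries cargo down the axon, was at 1009 to 1157 CPM (median 1055) against 1430.0, 1396, 1322, 1456 and 1545 CPM, and fell by 0.42 ± 0.05 (adjusted p = 0.00037).

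Of 61 tested secretory granule and SNARE genes, again listed after values were seen, 3 rose, 11 fell and 47 did not pass. With the covariate 2 members were called. Scg3, which packs granins into secretory granules, was at 209 to 231 CPM (median 220.3) against 295, 350.4, 320.3, 326 and 270.0 CPM, and fell by 0.51 ± 0.06 (adjusted p = 0.00041) in all 23 settings. Chgb, a granin, was at 430.3 to 636 CPM (median 485) against 695, 816, 637, 700.1 and 755 CPM, and fell by 0.54 ± 0.09 (adjusted p = 0.00323). Scg5, a chaperone of prohormone convertase 2, was at 147 to 175 CPM (median 164) against 326, 327, 189, 459 and 504 CPM, a littermate range over which littermate s151 came close to the 20-month libraries, and fell by 1.15 ± 0.18 (adjusted p = 0.00211). Pituitary hormone genes bore on the same group of peptides. Gh was at 0 to 2.77 CPM against 3.86, 0, 49.8, 0.762 and 51.6 CPM, and Pomc at 1.06 to 4.32 CPM against 8.06, 2.18, 45, 1.12 and 88.5 CPM, so littermates s151 and s155 held the high values of both. Gh and Pomc passed the filter in the littermates only, with adjusted p = 0.0396 and 0.0203, and their part in the granule genes was not tested. Littermate s149 alone was high in the serotonin transporter Slc6a4, at 44.0 CPM, and in Tph2, the enzyme of serotonin synthesis, at 65 CPM, and both passed the filter in the littermates only.

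The lists of particular neurons and regions given here held 0 to 4 called genes each, beside 5.37% higher and 6.2% lower over all genes tested. What part of the brain each library holds could not be read from them. Of 19 cortical and hippocampal excitatory genes 1 rose and 3 fell, among them Cabp7, a calcium-binding protein, at 89.9 to 102 CPM (median 93.8) against 136, 147, 109, 147 and 169.7 CPM, which fell by 0.58 ± 0.09 (adjusted p = 0.00205). Camk2a, a kinase of excitatory synapses, fell by 0.29 ± 0.06 (adjusted p = 0.00966) and overlapped between the groups. Of 15 striatal genes 0 were called, with a median of -0.18, of 19 cerebellar genes 2 fell, of 16 thalamic and midbrain genes 1 rose and 1 fell, and of 8 choroid plexus genes 0 were called, with a median of -0.25. Ttr, the main product of choroid plexus, was at 507 to 712 CPM against 489 to 1124 CPM.

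Transcripts of the mitochondrial genome were higher at 20 months. They made up 3.31 ± 0.335% of gene counts in the 20-month libraries (SD, n = 6) and 2.04 ± 0.177% in the littermates (SD, n = 5), with no overlap (two-sided exact permutation test, p = 0.00433). Of 11 tested genes 10 rose and 0 fell, with a median of 0.71. This list was drawn up after values were seen, and with the covariate for genes detected 3 of the 11 were called. mt-Cytb, the cytochrome b of complex III, was at 3881 to 4932 CPM (median 4392) against 3158, 2516, 2549, 2609 and 2693 CPM, and rose by 0.71 ± 0.07 (adjusted p = 7.5e-05) in all 23 settings. mt-Nd6, the complex I gene on the other strand, was at 74.6 to 108 CPM (median 87.2) against 31.4, 34.9, 35.9, 27.8 and 9.44 CPM, and rose by 1.69 ± 0.25 (adjusted p = 0.00149). Of 78 tested nuclear genes of oxidative phosphorylation 24 rose and 0 fell, with a median of 0.22, and with the covariate 22 rose. Ndufa1, a small subunit of complex I, was at 25.3 to 36.3 CPM (median 27) against 9.0, 12.5, 14.2, 15.1 and 12.4 CPM, and rose by 1.20 ± 0.15 (adjusted p = 0.00041). Cox6c, a subunit of complex IV, was at 102 to 128 CPM (median 105) against 49.3, 64.2, 74.4, 64.2 and 76.3 CPM, and rose by 0.72 ± 0.10 (adjusted p = 0.00122).

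Cytosolic ribosomal protein genes rose in 22 of 75 tested and fell in 0, with a median of 0.21. Rpl29 (ENSMUSG00000048758), a protein of the large subunit, passed the filter at 20 months only and differed more than any other named coding gene, at 44.9 to 57.6 CPM (median 54.4) against 0.638, 0.458, 0.661, 1.76 and 0 CPM. It rose by 6.24 ± 0.43 on the log2 scale (adjusted p = 1.3e-06). Rpl30, of the same subunit, was at 66.5 to 106 CPM (median 74.0) against 24.9, 22, 24.0, 16.0 and 38.6 CPM, and rose by 1.70 ± 0.20 (adjusted p = 0.00028). The ribosomal and respiratory lists, like those of splicing factors and nuclear RNAs, were drawn up after values were seen.

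The share of calls varied with transcript length and GC content. Of 427 tested genes with transcripts under 1000 bases, 18% were higher and 1.87% lower, with a median of 0.17, against 5.37% and 6.2% over all genes. Of 440 genes with under 40% GC, 14.8% were higher and 0.455% lower, and of 555 genes with 60% GC or more, 8.47% were higher and 3.06% lower. In each of the 3 bins between 45% and 60% GC, more genes were lower than higher. Length and GC were known for 96.8% of the tested genes, and their part in the differences was not tested. Among Cmpd60-treated brains the length shares were alike, with 17.9% higher and 1.67% lower under 1000 bases, but the GC shares were not. They were 9.56% higher and 2.44% lower under 40% GC, 8.14% and 3.77% at 55% to 60%, and 13.7% and 1.80% at 60% or more.

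Of 11 SR splicing factor genes 7 rose, 0 fell and 4 did not pass, with a median of 0.43, and of 20 hnRNP genes 10 rose, 0 fell and 10 did not pass, with a median of 0.26. Srsf1, which directs the choice of splice sites, was at 172 to 211 CPM (median 175) against 105, 104, 110.4, 108 and 128 CPM, and rose by 0.71 ± 0.07 (adjusted p = 0.00011) in all 23 settings. Hnrnpa0, an RNA-binding protein of the hnRNP family, was at 156 to 188 CPM (median 166) against 103, 118, 112, 97.7 and 88.4 CPM, and rose by 0.71 ± 0.08 (adjusted p = 0.00026). Of long noncoding RNAs kept in the nucleus, 4 of 4 tested were higher, but they were picked after values were seen. With the covariate for genes detected 2 of these 4 were called. Malat1, of nuclear speckles, was at 1136 to 2092 CPM (median 1269) against 489.6, 498, 535, 397 and 730.2 CPM, and rose by 1.44 ± 0.18 (adjusted p = 0.00039). Neat1, the scaffold of paraspeckles, was at 115 to 175 CPM (median 129) against 52.2, 38.5, 54.0, 46.3 and 34.8 CPM, and rose by 1.56 ± 0.14 (adjusted p = 2e-05). Of 56 tested long noncoding RNAs, 13 rose and 0 fell.

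**Figure D4:**
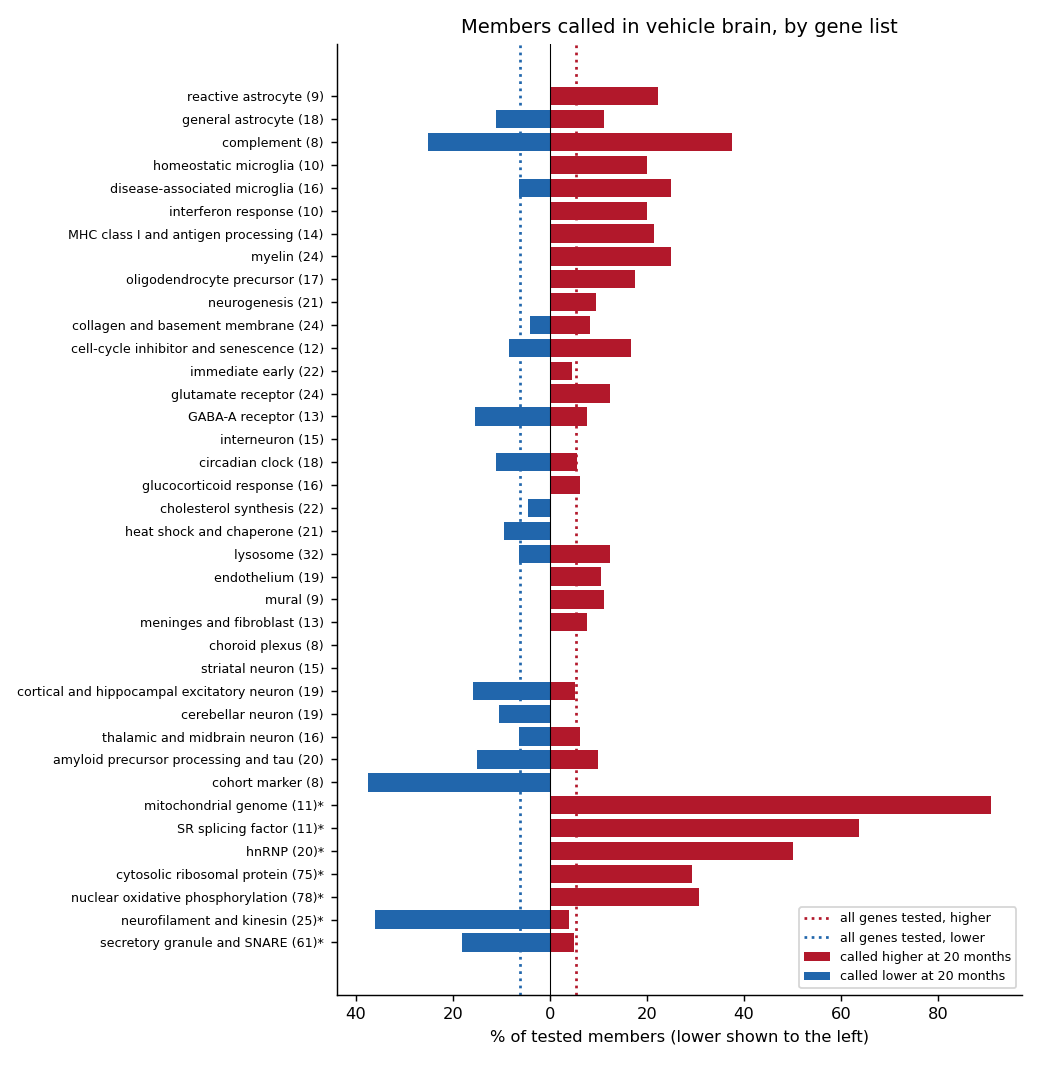
For each gene list (number of tested members in brackets) the bars give the percent of tested members called higher (red, to the right) or lower (blue, to the left) at 20 months, and dotted lines give the same over all 10776 genes, 5.37% and 6.2%. Lists with a star were drawn up after values of these data were seen, and the mitochondrial genome list reaches furthest, with 10 of 11 higher.

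Most called falls of at least 4-fold were in pseudogenes (11) and gene models without a RefSeq type (8), beside 5 coding genes. Among the coding genes, Gh fell by 4.86 and Pomc by 3.62. Of 92 tested pseudogenes 34 were called (37.0%), 7 higher and 27 lower, against 10.9% of protein-coding genes. Of the 30 calls of at least 4-fold, 9 were coding genes, 11 were pseudogenes, all lower, and 10 had no RefSeq type. Atp6v0c-ps2, which passed the filter in the littermates only, was at 1.13 to 2.33 CPM (median 1.72) against 116, 95.6, 174, 2.65 and 174 CPM, and fell by 6.03 ± 0.72 (adjusted p = 0.00036). Its parent Atp6v0c, a subunit of the vacuolar proton pump, moved the other way, at 8.72 to 15.8 CPM (median 12.8) against 3.86, 3.21, 3.34, 3.41 and 0.499 CPM, a rise of 2.1 ± 0.38 (adjusted p = 0.00458) through the filter at 20 months only. Added together, the parent and its pseudogene averaged 14.1 CPM and 115 CPM. Rpl3-ps1 was at 20.4 to 27.4 CPM (median 25.2) against 136, 118, 119, 258 and 160.0 CPM, and fell by 2.69 ± 0.19 (adjusted p = 1.3e-06). Its parent Rpl3 was also called in the other direction, with a rise of 0.29 (adjusted p = 0.0393). Such copies share sequence with their parents, so counts of either are uncertain wherever reads could be placed on both. Among unnamed models, ENSMUSG00000094446 averaged 20.2 CPM against 0.112 CPM and ENSMUSG00000094497 averaged 0.143 CPM against 23.7 CPM, each passing the filter through its higher group only.

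Among the other coding genes with large changes, Akap12, a scaffold of kinase A, was at 61.2 to 89.3 CPM (median 73.5) against 135, 141, 128, 142.1 and 165 CPM, and fell by 0.95 ± 0.09 (adjusted p = 5.9e-05) in all 23 settings. Pla2g4e, a phospholipase, passed the filter in the littermates only, at 6.67 to 7.64 CPM (median 7.32) against 26.2, 32.8, 10.2, 56.4 and 54.5 CPM, and fell by 2.31 ± 0.32 (adjusted p = 0.00096). Mybpc3, a myosin-binding protein best known from heart that also passed in the littermates only, fell by 1.67 ± 0.21 (adjusted p = 0.00041), at 3.50 to 6.74 CPM against 10.8, 18.6, 14.3, 16.7 and 16.2 CPM. For Pla2g4e, littermate s151 lay closest to the 20-month libraries. Plvap, the diaphragm protein of fenestrated vessels, fell by 0.97 ± 0.21 (adjusted p = 0.0102), at 9.30 to 11.2 CPM against 17.2, 19.9, 12.3, 19.0 and 33.3 CPM. Sp8, a transcription factor of interneuron precursors, passed the filter at 20 months only and rose by 2.08 ± 0.47 (adjusted p = 0.0132), at 8.29 to 16.3 CPM against 2.40, 4.18, 6.47, 1.48 and 0.541 CPM. None of these 5 genes overlapped between the groups. Pabpn1, Eif3j2, Cfap54, mt-Nd6, Rpl35a and Ttc39a complete the named genes of largest change, with log2 fold changes of 1.53, -2.33, -1.03, 1.69, 1.56 and -0.93, and the calls of Pabpn1 and Ttc39a depended on single libraries. Pabpn1 passed the filter at 20 months only, and Eif3j2, Cfap54 and Ttc39a in the littermates only.

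Vessel and matrix genes were called in small numbers, beside 5.37% higher and 6.2% lower over all genes tested. Of 19 endothelial genes 2 rose and 0 fell. Ly6a, an interferon-sensitive surface protein of brain endothelium, passed the filter at 20 months only and was at 16.6 to 24.6 CPM (median 21.7) against 13.5, 8.22, 12.4, 6.82 and 8.48 CPM, a rise of 1.10 ± 0.19 (adjusted p = 0.00319). Mgp, the matrix Gla protein that opposes calcification, also passed at 20 months only, at 10.1 to 14.4 CPM (median 13.3) against 5.03, 4.83, 5.55, 5.57 and 7.28 CPM, and rose by 1.20 ± 0.17 (adjusted p = 0.00091). The Mgp call held in each setting that kept the gene, which 2 stricter filters did not. Of 24 collagen and basement membrane genes 2 rose and 1 fell. Col6a1, a chain of collagen VI, was at 24.5 to 47 CPM (median 31.8) against 18.6, 18.7, 16.6, 22.5 and 17.2 CPM, and rose by 0.79 ± 0.16 (adjusted p = 0.00745).

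The list counts that follow stand beside 5.37% higher and 6.2% lower over all genes tested. Among 12 tested cell-cycle inhibitor and senescence genes 2 rose and 1 fell. Cdkn1a, the p53 target p21, was at 25.8 to 32.5 CPM (median 27.4) against 21.3, 23.8, 20.4, 17.6 and 11.9 CPM, and rose by 0.57 ± 0.15 (adjusted p = 0.0295), a call lost without library 27, 28, 31, 32 or s154 (adjusted p of up to 0.074). Cdkn2a, the usual marker of senescent cells, stayed below 1 CPM in all 11 libraries and was not tested. Of 32 lysosome genes 4 rose and 2 fell, with Ppt1, a thioesterase of the lysosome, at 91.9 to 100.1 CPM (median 99.1) against 147, 117, 136, 122 and 149.4 CPM, a fall of 0.45 ± 0.07 (adjusted p = 0.00163). Of 22 cholesterol synthesis genes 0 rose and 1 fell (Acat2), with a median of -0.15, and without library s155 the count that fell was 7. Of 21 chaperone genes both calls were falls. Hsp90ab1, the constitutive heat shock protein 90, was at 1523 to 1893 CPM (median 1699.5) against 2195, 2236, 2079, 2247 and 2133 CPM, and fell by 0.37 ± 0.05 (adjusted p = 0.00122). Of 18 circadian clock genes 1 rose and 2 fell, of 22 immediate early genes 1 rose and 0 fell, and of 16 glucocorticoid-responsive genes 1 rose and 0 fell. Of 21 neurogenesis genes 2 rose and 0 fell, and of 9 mural cell genes 1 rose and 0 fell.

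Genes of amyloid processing and tau divided, with 2 of 20 higher and 3 lower, against 5.37% and 6.2% over all genes. Aph1b, a subunit of gamma-secretase, was at 38.6 to 45.4 CPM (median 43.1) against 16.3, 30.5, 20.8, 29.9 and 25 CPM, and rose by 0.79 ± 0.14 (adjusted p = 0.0047) in all 23 settings. App, the mouse amyloid precursor gene, was at 1789.6 to 2064 CPM (median 1829) against 2259, 2177, 2018, 2345 and 2300.0 CPM, overlapping in littermate s151, and fell by 0.25 ± 0.05 (adjusted p = 0.00751). The littermates do not carry the transgene. Clu, the apolipoprotein clusterin, was at 565 to 679 CPM (median 635) against 857, 818, 689, 842 and 692 CPM, and fell by 0.30 ± 0.07 (adjusted p = 0.0156). Mme, the amyloid-degrading protease neprilysin, fell by 0.62 ± 0.18 (adjusted p = 0.0376), a call lost when any single 20-month library, or littermate s150, was left out.

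The same age and colony contrast existed among Cmpd60-treated brains, in 6 libraries at 20 months and 5 of littermates at 6 to 7 months (22.5 mg per kg a day for 14 days), none shared with the vehicle groups. There 1418 of 10750 genes were called (13.2%), 733 higher (6.82%) and 685 lower (6.37%). In 1330 genes (12.4%) the groups did not overlap, with 718 higher (6.68%) and 612 lower (5.69%). Of the 1223 vehicle calls tested in both, 587 were called in the same direction under Cmpd60, 290 of them higher and 297 lower, and 0 in the opposite one. These are 48% of the vehicle calls and 42.3% of the 1387 Cmpd60 calls among genes tested in both. In direction alone 1174 of the 1223 were alike (96.0%), against 71.6% of all 10589 genes tested in both. The Cmpd60 count was 854, 880 or 857 without 20-month library 34, 35 or 37 and 2711 without littermate s152. With the covariate for genes detected it was 1832, more than without it, while the vehicle count fell. As the cohorts, colonies and fasting differ in the same way, this comparison does not part age from them. A test of the difference between the contrasts called 0 of 10937 genes with edgeR, with 653 at an unadjusted p below 0.05 and a smallest adjusted p of 0.181, and 2 with DESeq2.

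Some named genes gave like values under both treatments and others did not. Wdfy1 fell by 1.70 under Cmpd60 (adjusted p = 8.6e-07), Gabra2 by 1.15 (adjusted p = 4.6e-06) and Nefh by 0.69 (adjusted p = 0.00315), while H2-K1 rose by 1.67 (adjusted p = 0.00033), Malat1 by 1.55 (adjusted p = 0.00064) and C1qb by 0.62 (adjusted p = 0.00042). Aqp4, which rose in vehicle brain, had a log2 fold change of -0.21 under Cmpd60 (adjusted p = 0.146), a difference between the contrasts of 0.57 with an unadjusted p of 3.6e-05 and an adjusted p of 0.2. Camk2a, which fell in vehicle brain, was at 0.05 (adjusted p = 0.792). Serpina3n and Trem2 were called under Cmpd60 only, where they rose by 0.44 (adjusted p = 0.00547) and 1.13 (adjusted p = 0.00063). Their vehicle changes had the same direction, at 0.20 to 0.37 for Serpina3n and 0.97 to 1.52 for Trem2 with single libraries left out. For these genes the treatments thus differed in passing the test, not in direction. Rpl29 parted the littermates, since under Cmpd60 they were at 0, 20.9, 0.44, 21.8 and 21.0 CPM (libraries s152, s153, s156, s157 and s158) with a log2 fold change of 2.01 (adjusted p = 0.112). Near-absent H2-T22 and H2-T23 recurred in 1 Cmpd60-treated littermate, library s153, at 0.544 and 0.160 CPM. Gh was high in 1 library of each Cmpd60 group, at 499.7 CPM in 20-month library 35 and 333 CPM in littermate s157.

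**Figure D5:**
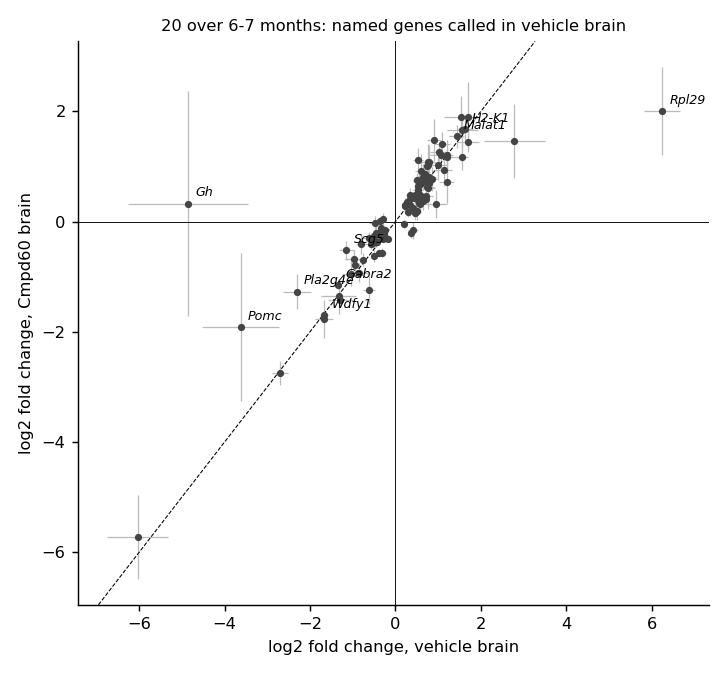
Log2 fold changes, 20 months over 6 to 7 months, in vehicle brain (x axis) and in Cmpd60 brain (y axis) of the 115 named genes that were called in vehicle brain and tested in both, with standard errors as bars and a dashed line of equality. Of these genes 109 have the same direction, and Rpl29, Gh and Pomc lie furthest from the line.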

How the data were processed

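Brain libraries of 11 vehicle mice were analysed, with 11 Cmpd60 libraries for the parallel contrast. The authors trimmed reads with Trimmomatic 0.32, aligned them with HISAT2 2.1.0 and counted them with HTSeq 0.11.0, using strand, and deposited raw counts per Ensembl gene without normalization, with oligo-dT selection before. The genome build is not given in the sources used here. Each file lists 54232 genes and 5 summary lines, which held 17.0% to 21.9% of reads in the vehicle libraries and were left out. Symbols were matched to 32651 genes.

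Counts were scaled by TMM and tested in R 4.3.3 with edgeR 4.0.16 (quasi-likelihood, Benjamini-Hochberg adjusted p below 0.05) over genes with a mean of at least 10 CPM in either group. The groups came from the titles. Alternatives used limma 3.58.1 (voom), DESeq2 1.42.0, other filters, scaling and libraries, and libraries left out singly. The model recovered known changes on simulated counts. Alternatives that left out libraries with under 20000 genes or non-coding genes were chosen after seeing the data, and the members and gene lists were chosen with earlier results of these data known. The text names the 10 higher and 10 lower called genes of largest change without overlap (predicted genes and pseudogenes left out), up to 4 members per list with the smallest adjusted p, the 3 markers, and genes said to be chosen after their values were seen. Markers of tissue identity and further members are named by level only. Each library was taken as 1 mouse, as the titles number them singly, and p-values measure the spread between these libraries. The floor of 3 counts for a value of 0 covers only the error of counting, as the reads carry no molecular identifiers. Some genes are not reported here.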

Additional observations from a re-analysis of the deposited data

Results flagged for a closer look

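Among 262 groups of library values examined, 31 held a library far from the rest of its own group, by the gap to its nearest neighbour over the whole range. Chance sets about 1 in 20 groups apart in this way. In the 20-month group, library 30 was high in H2-Q4 (17.2 CPM), H2-K1 (71.7 CPM), B2m (80.7 CPM), Laptm4a (179 CPM), Rpl37a (98.8 CPM), Cox6c (128 CPM) and Uqcr10 (62 CPM) and low in Camk2a (1398 CPM). Library 29 was high in Neat1 (175 CPM), Wdfy1 (23.9 CPM), Col12a1 (16.0 CPM) and Gabrg3 (30.2 CPM). Library 32 was high in App (2064 CPM), Rps27a (91 CPM), Chgb (636 CPM) and Nefm (705 CPM) and low in Ppt1 (91.9 CPM). Library 28 was high in Acat2 (42.0 CPM), library 27 in Ctsh (12.2 CPM), and library 31 was low in C3 (3.39 CPM). In the littermates, library s155 was low in Atp6v0c (0.499 CPM) and Cd63 (34.1 CPM) and high in Ttc39a (18.9 CPM), Cyfip2 (1348 CPM) and Srsf1 (128 CPM). Library s149 was high in Slc6a4 (44.0 CPM), Tph2 (65 CPM) and mt-Cytb (3158 CPM) and low in Rpl37a (31.1 CPM). Library s150 was low in Sall1 (19.2 CPM), and library s151 high in Ifi27 (30.4 CPM). For 0 named genes did the contrast differ between vehicle and Cmpd60 brain by the test of that difference.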

How the results depend on the processing

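The vehicle count of 1247 genes was 537 (249 higher, 288 lower) with limma-voom and a variance factor for each group and 244 (100 of them lower) with a covariate for how many genes each library detected, which raised the share of higher genes from 46.4% to 59.0%. Leaving out 1 library gave 712 (without 20-month library 27) to 2265 (without littermate s155), with 771 without library 28 and 730 without library 31. The cause was not tested. Other tests, filters, scalings and gene sets gave 1100 to 1854, with 875 higher and 677 lower under the filter of the study. That filter keeps genes that exceed 2 counts in 3 or more libraries. With no filter the median log2 fold change was 0.21. The Cmpd60 count of 1418 was 811 with the variance factor, 2142 with DESeq2, 854 to 2711 with 1 library left out, lowest without library 34 and highest without littermate s152, with 880 without library 35 and 857 without library 37, and 2711 without libraries under 20000 genes. With the covariate for genes detected the Cmpd60 count was 1832, 933 of them higher, and 641 were among the 1418. The contrasts differed in 2 genes with DESeq2, in 1 with no filter, and in 0 to 2 with 1 library left out, with 2 without library s152. The differences in genes detected, in the share of the 100 highest genes and in the mitochondrial share kept their direction and side of the threshold in each alternative run.

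With the covariate, 28 of 122 named called genes were called, 91 kept their direction only and 3 turned. Pabpn1 was then at -0.16, Ttc39a at 0.12 and Bhlhe41 at -0.025, and of genes not called, Serpina3n was at -0.10 and Trem2 at -0.54. C4b was at 0.031 with limma-voom, with and without the variance factor. With the variance factor 85 of 122 were called. In every setting that kept the gene, 26 of the 122 were called. Thinning to equal depth left the mean genes detected at 25235 and 19733. No paired analysis was possible because the groups share no replicate number.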
